A study of Mus musculus with 89 samples.

Results

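The genes described here are 5 genes of antigen presentation on MHC class II: Cd74, H2-Aa, H2-Ab1, H2-Eb1 and Ciita. They were chosen by name, with earlier results of these data known. Of these genes, 5 of 5 were found among the 19962 targets of the mouse Whole Transcriptome Atlas, in which tagged probes bind RNA in place on the section. Light in the GeoMx profiler released these tags from 89 segments of fresh frozen mouse squamous cell carcinoma, each labelled neutrophil, on 3 slides. The series asks how neutrophils in different tumour regions respond to immunotherapy; the agent, its dose, the strain and the age of the mice are not given in the sources used here.

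The authors' annotation placed the segments in 7 classes of stage and location. The naive slide was sampled before treatment and held 15 stroma segments, 13 interface segments at the border of the tumour and 14 segments within the tumour. The acute slide, after treatment, held 9 stroma and 2 interface segments. The relapse slide, after treatment, held 14 stroma and 22 interface segments, and its slide name says treated while its class says relapse. The scan of the naive slide was named for UP and HRass and that of the relapse slide for DMBA, so the slides may hold different tumour models. With 1 slide per stage, stage, slide and model cannot be told apart. Segments share animals that the labels do not name, so p-values over segments are too small and measure the spread between segments.

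MHC class II molecules are heterodimers of an alpha and a beta chain that carry peptides from endocytosed protein to the cell surface, where CD4+ T cells read them. H2-Aa and H2-Ab1 encode the alpha and beta chains of H2-A, and H2-Eb1 encodes the beta chain of H2-E. Cd74 encodes the invariant chain, which holds the peptide groove closed until it is degraded in the endosome by cathepsins. Ciita encodes the transactivator that switches on the other genes of the group, and it is induced by interferon gamma. Dendritic cells, macrophages and B cells are the usual source of these transcripts, and keratinocytes, fibroblasts and neutrophils can express them under inflammatory signals.

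In RefSeq (GRCm38.p6), H2-Ab1 (chr17:34263227-34269418), H2-Aa (chr17:34282744-34287823) and H2-Eb1 (chr17:34305867-34316674) were neighbours on chromosome 17. Ciita lay on chromosome 16 (chr16:10480014-10531064). Ciita acts through a protein complex that sits on the X and Y boxes of class II promoters, so the stretch from 120 bases upstream to the start site is shown for H2-Aa and H2-Eb1, the 2 members with an entry in the promoter table. H2-Aa is at chr17:34287824-34287943 on the minus strand and H2-Eb1 at chr17:34305747-34305866 on the plus strand. Capitals mark matches to CTNGCAACT (X box letters) and CTGATTGG (Y box letters).
H2-Aa: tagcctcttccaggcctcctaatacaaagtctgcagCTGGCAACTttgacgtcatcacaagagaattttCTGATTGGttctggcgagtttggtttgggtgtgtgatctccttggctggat
H2-Eb1: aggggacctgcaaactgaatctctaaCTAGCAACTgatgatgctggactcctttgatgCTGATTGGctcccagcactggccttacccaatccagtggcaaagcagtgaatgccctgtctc
The X letters began at -84 and the Y letters at -51 in H2-Aa, with 24 bases between them. In H2-Eb1 they began at -94 and -62, with 23 bases between them. The X letters were set after these sequences were read, so their match here is by choice. On either strand and over windows of 300 bases, 0.898% of 32851 promoters held the X letters, 4.10% held the Y letters and 0.0487% held both, 16 promoters in all. A match is a description of the letters and not a measured binding site.

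Values below are recovered tag counts, the deposited normalised signal times the authors' factor of the segment, with a floor of 1 count that stands for no count above the lowest. Depth, the sum of counts above this floor, was 7094 in the median segment, 537 in the shallowest and 207846 in the deepest. Its class medians ran from 3485.5 in relapse interface and 3862.5 in relapse stroma through 10635 in naive stroma to 64325 in acute stroma. At the median depth of relapse interface, 1 count corresponds to 2.87 per 10000 counts, against 0.940 in naive stroma. All naive segments were collected in plate G, all relapse segments in plate H, and acute stroma was split into 4 and 5. Neutrophil transcripts were few. The markers S100a8 and S100a9 passed the limit of quantitation in 44 and 38 of 89 segments. This limit was the negative probes' geometric mean times the square of their geometric SD, and never under 2 counts. Among the other listed markers, Camp passed it in 8, Ly6g in 6, Csf3r, Cxcr2 and Mpo in 4 each, Elane in 3 and Ltf in 0. In a segment of mixed tissue, fewer cells of a type and less RNA per cell cannot be told apart.

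The members were measured near the floor. H2-Aa was above the limit of quantitation in 28 of 89 segments, Cd74 and H2-Ab1 in 25 each, H2-Eb1 in 19 and Ciita in 6. The transactivator therefore failed the filter of 10% of segments that left 5087 targets for testing, and it is described with no test. Of the 4 tested members, none exceeded the limit in 39 segments and 4 of 4 did so in 6 segments. Of those 6, 4 were naive stroma, 1 was acute stroma and 1 was acute interface. In relapse stroma no segment had more than 1 of the 4 above the limit, with 5 segments at 1 and 9 at 0. H2-Ea, the alpha chain of H2-E and no member, was looked at after the values were seen and exceeded the limit in 4 of 89 segments.

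Among the classes with more than 2 segments, Cd74, the invariant chain, had its highest median counts in naive and acute stroma. Its count in naive stroma had a minimum of 1, a median of 8 and a maximum of 40, and 11 of 15 segments were above the limit of quantitation. In naive interface the median was 1 and the maximum 7, with 3 of 13 above the limit, and within the tumour the median was 1 and the maximum 4, with 4 of 14 above it. Acute stroma ranged from 1 to 59 with a median of 7, and the 2 acute interface segments had 1 and 36. In relapse the median was 1 in both locations, with a maximum of 2 in stroma and 10 at the interface. Every class had at least 1 segment at the floor, so the ranges of all 7 classes overlapped.

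On the naive slide the alpha chain H2-Aa likewise had its highest median count in stroma. Its median count was 7 in naive stroma (1 to 21), 3 in naive interface (1 to 9) and 1 within the tumour (1 to 4). It was 6 in acute stroma (1 to 34), 4 and 34 in the 2 acute interface segments, and 1 in relapse stroma and relapse interface, with a maximum of 4 in each. The beta chain H2-Ab1 had a median of 2 in naive stroma and in naive interface, but its maximum was 19 in stroma and 7 at the interface. Its median was 1 within the tumour, with a maximum of 3. In acute stroma it was 3, with a maximum of 34, and the acute interface segments had 5 and 27. It was 1 in relapse stroma, with a maximum of 3, and 1 in relapse interface, with a maximum of 5 and 7 of 22 segments above the limit.

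H2-Eb1, the beta chain of H2-E, was at the floor in 11 of 14 relapse stroma and 17 of 22 relapse interface segments. Its median was 2 in naive stroma and in naive interface, 3 in acute stroma and 1 in the relapse classes and within the tumour, and its highest counts were 18 in acute interface and 16 in naive stroma. Ciita had a median of 3 in acute stroma, 2 in naive interface and 1 in naive stroma, within the tumour and in the relapse classes. Its highest count, 11, was in acute stroma, where 0 of 9 segments passed the limit, which lay between 2 and 17.3 counts there. Of the 6 segments in which Ciita did pass, 3 were naive interface and 1 each naive stroma, within the tumour and relapse interface.

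**Figure D1:**
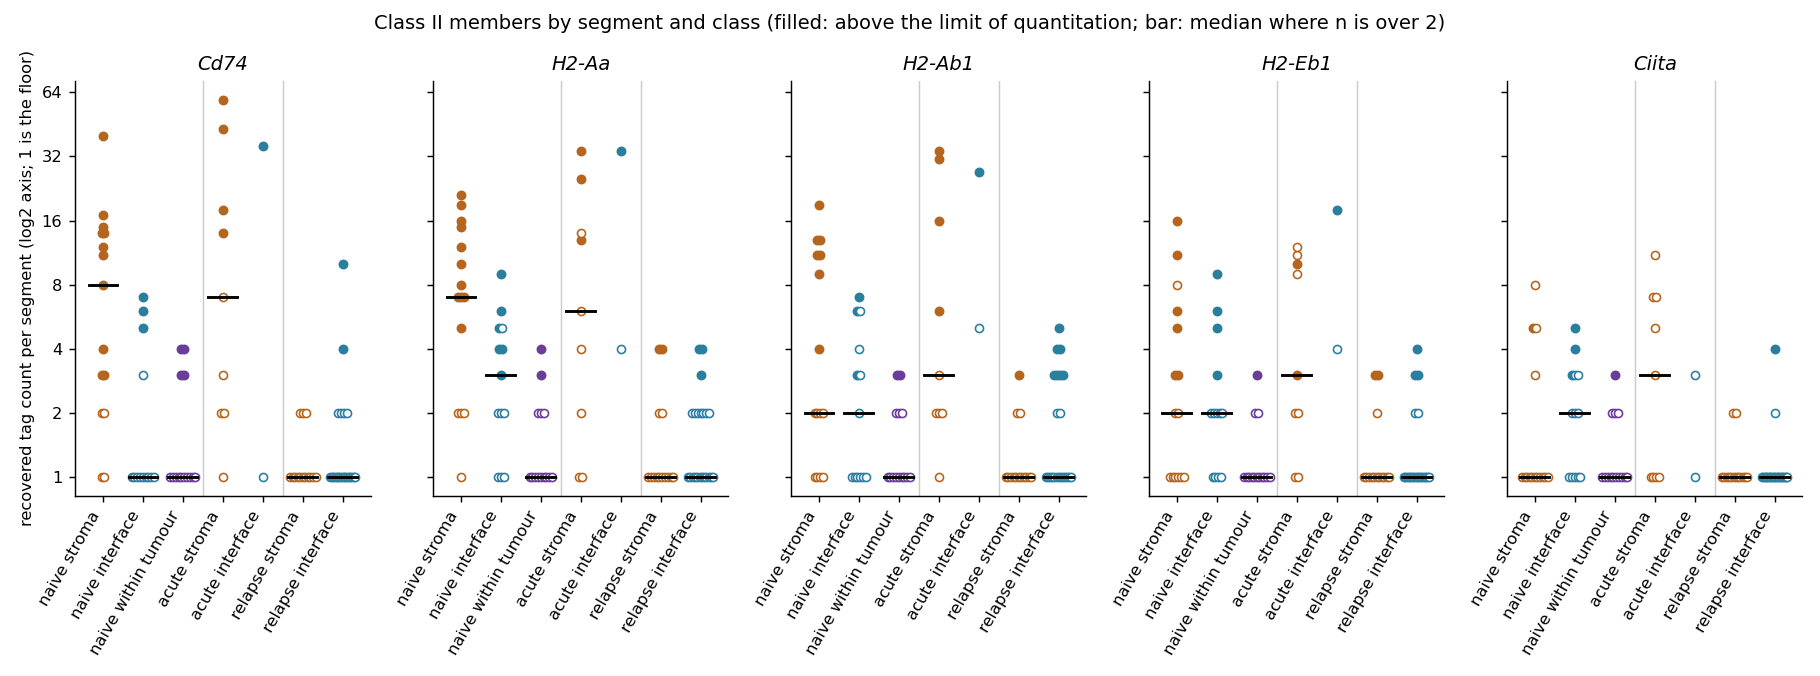
Recovered tag counts of the 5 members (log2 axis, 1 is the floor) in each of the 89 segments by class; brown is stroma, blue interface and purple within the tumour, filled points are above the limit of quantitation and bars are class medians. Cd74 has its median at 8 in naive stroma and at 1 in naive interface, within the tumour and in the relapse classes, while Ciita does not exceed 11 in any segment. Depth differs between classes and is not corrected in this plot.

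Counts above the floor, summed over the segments of a class and divided by their summed depth, gave the order of the classes with depth taken into account. Cd74 was at 3.49 per 10000 in acute interface, 3.02 in naive stroma, 2.19 in acute stroma, 1.61 in relapse interface, 0.844 within the naive tumour, 0.552 in naive interface and 0.357 in relapse stroma. The mean per segment was 4.15 ± 4.70 (SD, n = 15) in naive stroma, 2.26 ± 2.29 (SD, n = 9) in acute stroma and 0.300 ± 0.729 (SD, n = 14) in relapse stroma. The ranges of neighbouring classes in this order overlapped, and single segments set parts of it. Without its segment of 10 counts at a depth of 4950, relapse interface was at 0.741 for Cd74, below the naive tumour. The acute interface value came from 1 of its 2 segments, at 6.97 per 10000, with the other at 0, and without the segment of 7 counts naive interface was at 0.364. Within the tumour the mean per segment of Cd74, 3.05 ± 10.1 (SD, n = 14), rested on 1 segment with 38.1 per 10000, a count of 4 at a depth of 788. H2-Aa was at 3.59 in acute interface, 2.72 in naive stroma, 1.51 in relapse interface, 1.42 in acute stroma, 1.04 in naive interface, 0.952 in relapse stroma and 0.675 within the tumour. H2-Ab1 ran from 2.99 in acute interface, over 2.01 in relapse interface and 1.76 in naive stroma, to 0.476 in relapse stroma. H2-Eb1 ran from 1.99 in acute interface to 0.338 within the tumour, and Ciita from 0.519 in naive interface to 0.199 in acute interface. Without the acute interface segment with a depth of 50226, that class was at 0.599 for H2-Aa, 0.799 for H2-Ab1 and 0.599 for H2-Eb1. For scale, the average target of the panel was at 0.501 per 10000.

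On the naive slide, Cd74, H2-Aa and H2-Ab1 were lower at the tumour interface than in the stroma when segments were pooled over tissue pieces, and these calls were lost when locations were compared within pieces. Ciita, untested, was at 0.519 per 10000 in the pooled interface and 0.389 in the pooled stroma. Limma on log2(signal + 1), with log2 depth in the fit and Benjamini-Hochberg adjustment over 5087 targets, placed Cd74 lower by a log2 difference of -1.64 (SE 0.290, adjusted p = 1.32e-05). H2-Aa was lower by -1.20 (SE 0.260, adjusted p = 0.000398, limma) and H2-Ab1 by -0.79 (SE 0.264, adjusted p = 0.0360, limma). H2-Eb1 did not pass, at -0.29 (95% interval -0.75 to 0.16, adjusted p = 0.461, limma). Thus 3 of the 4 tested members were called lower, where 10.7% of all tested targets were called in either direction and 10.2% were called lower. The median difference was -0.99 over the 4 and -0.14 over all tested targets, of which 68.6% lay below 0.

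The counts behind these calls overlapped between the locations. For Cd74, 8 of 15 stroma segments were above the highest interface count of 7. For H2-Aa, 6 of 15 were above the highest interface count of 9, for H2-Ab1 6 of 15 above 7, and for H2-Eb1 2 of 15 above 9. Per 10000 counts, which takes depth into account, 2 of 15 stroma segments were above the highest interface segment for Cd74 (9.77), 4 of 15 for H2-Aa (6.52), 1 of 15 for H2-Ab1 (9.77) and 0 of 15 for H2-Eb1 (8.74). Rescaled to the same total per segment with no depth term, Cd74 alone was called (-1.36, adjusted p = 0.0305, limma), with H2-Aa at -1.01 (adjusted p = 0.178) and H2-Ab1 at -0.67 (adjusted p = 0.502). H2-Ab1 also lost its call with tissue piece as a random block (-0.67, adjusted p = 0.126, limma), with no low-value filter (adjusted p = 0.0561) and with limma's voom on recovered counts (-1.01, adjusted p = 0.228).

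Segments of the naive slide lay in 5 tissue pieces, told apart here by the gaps between their positions. Piece 3 held 6 of the 15 stroma segments and no interface segment, with Cd74 counts of 2, 3, 11, 12, 14 and 14. Piece 2 held 8 of the 13 interface segments, with Cd74 at 1 in 6 of them and at 3 and 5 in the others, and 2 stroma segments with 1 and 8. Piece 1 held 3 stroma segments with 15, 17 and 40, and 1 interface segment with 7. That interface segment had a depth of 6139 and so 9.77 per 10000, above the 3 stroma segments at 4.57, 1.77 and 4.05. Without piece 3 the call for Cd74 was kept (-1.36, adjusted p = 0.00221, limma) and those for H2-Aa (-0.81, adjusted p = 0.0561) and H2-Ab1 (-0.39, adjusted p = 0.468) were lost. Without piece 2 none of the 3 was called, with Cd74 at -1.37 (adjusted p = 0.0704, limma), H2-Aa at -0.86 (adjusted p = 0.219) and H2-Ab1 at -0.57 (adjusted p = 0.453). Of the 5 fits that each left out 1 naive piece, 4 kept the call of Cd74, 3 that of H2-Aa and 2 that of H2-Ab1. The pieces that hold most stroma and most interface segments thus differ, and location is partly tied to piece. With piece as a fixed term, so that locations are compared within pieces, 0 of the 4 members were called. Cd74 was then at -0.64 (95% interval -1.35 to 0.06, adjusted p = 0.478, limma), H2-Aa at -0.73 (-1.42 to -0.04, adjusted p = 0.390) and H2-Ab1 at 0.09 (-0.58 to 0.77, adjusted p = 0.945), and 0.295% of all targets were called. Only pieces 1 and 2 hold both locations, with 5 stroma and 9 interface segments, and pieces 4 and 5 enter through their segments within the tumour.

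**Figure D2:**
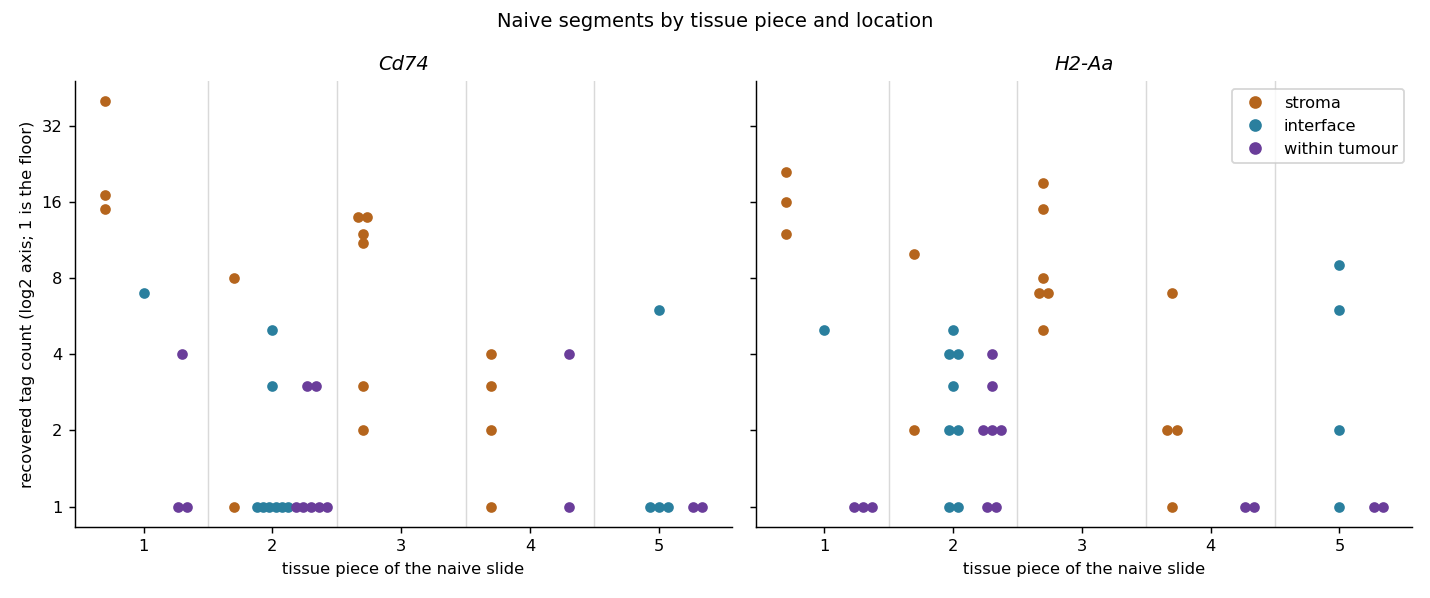
Recovered counts of Cd74 and H2-Aa (log2 axis, 1 is the floor) in the 42 naive segments by tissue piece and location. Piece 3 holds stroma segments only and piece 5 none. Depth differs between segments and is not corrected in this plot.

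Within the naive tumour, Cd74 and H2-Aa were also lower than in stroma when segments were pooled over pieces. Cd74 differed by -1.26 (SE 0.298, adjusted p = 0.00290, limma) and H2-Aa by -1.38 (SE 0.267, adjusted p = 8.96e-05, limma). H2-Ab1 was at -0.68 (adjusted p = 0.174, limma) and H2-Eb1 at -0.51 (adjusted p = 0.286, limma), and neither passed. The 2 called lower of 4 stand beside 4.03% of all tested targets called and 3.79% called lower. For H2-Aa, 11 of 15 stroma segments were above the highest count within the tumour, 4, and for Cd74 8 of 15 were above 4. Per 10000 counts it was 6 of 15 for H2-Aa, above 3.28, and 0 of 15 for Cd74, above 38.1. With piece as a fixed term neither was called (Cd74 -0.36, 95% interval -1.02 to 0.30, adjusted p = 0.836; H2-Aa -0.87, -1.51 to -0.22, adjusted p = 0.412, limma), beside 0.177% of all targets. Without piece 3 neither was called (Cd74 -0.95, adjusted p = 0.114; H2-Aa -0.93, adjusted p = 0.0606, limma). Cd74 also lost its call without piece 2 (-1.23, adjusted p = 0.129) and with voom (-0.95, adjusted p = 0.0974).

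Between the interface and the interior of the naive tumour, 0 of the 4 tested members were called by limma, beside 0% of all targets (370 of 5087 at an unadjusted p under 0.05). The differences, within tumour minus interface, were 0.37 for Cd74 (95% interval -0.24 to 0.99), -0.18 for H2-Aa (-0.73 to 0.37), 0.11 for H2-Ab1 (-0.45 to 0.67) and -0.21 for H2-Eb1 (-0.71 to 0.28). These intervals include shifts in either direction.

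On the relapse slide no tested member was called between locations. Relapse interface minus relapse stroma was 0.28 for Cd74 (95% interval -0.24 to 0.80), 0.22 for H2-Aa (-0.24 to 0.69), 0.46 for H2-Ab1 (-0.01 to 0.93) and 0.09 for H2-Eb1 (-0.32 to 0.51). Limma called 0 of 4, beside 0% of all targets (122 of 5087 at an unadjusted p under 0.05). Of the 22 interface segments, 2 had more Cd74 counts than the highest stroma segment, with 4 and 10, and both lay in relapse piece 1. In that piece 14 interface segments and 2 stroma segments were sampled, and the stroma segments had a Cd74 count of 1 each. Per 10000 counts, 6 of 22 interface segments were above the highest stroma segment for Cd74 (2.58), among them a segment of relapse piece 2 at 5.48. The tally was 4 of 22 for H2-Aa (above 4.04), 7 of 22 for H2-Ab1 (above 2.35) and 0 of 22 for H2-Eb1 (above 5.46). At the median depth of relapse stroma 1 count corresponds to 2.59 per 10000, above the 0.552 of Cd74 in naive interface, so levels that low were not detectable in a single such segment.

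The difference between the slides in interface minus stroma was itself tested. The interaction, relapse minus naive, was 1.92 for Cd74 (SE 0.392, adjusted p = 0.00117, limma), 1.43 for H2-Aa (SE 0.351, adjusted p = 0.00739) and 1.25 for H2-Ab1 (SE 0.357, adjusted p = 0.0283). H2-Eb1 was at 0.39 (adjusted p = 0.567, limma). Of the 4 tested members 3 were called higher, beside 3.54% of all targets called and 3.5% called higher. The median was 1.34 over the 4 and 0.16 over all targets. None was called with piece as a fixed term, where Cd74 was at 0.80 (adjusted p = 0.607, limma), H2-Aa at 1.05 (adjusted p = 0.443) and H2-Ab1 at 0.34 (adjusted p = 0.861). None was called either after rescaling to the same total (Cd74 1.86, adjusted p = 0.0954, limma), without naive piece 2 (1.67, adjusted p = 0.123) or without relapse piece 1 (1.54, adjusted p = 0.0866). Without naive piece 3 or relapse piece 2, Cd74 alone was called, and H2-Ab1 also lost its call without relapse piece 3, with tissue piece as a random block, with no filter and with voom (adjusted p of 0.0649, 0.0887, 0.0627 and 0.0564, limma).

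Across stages, stroma segments of the relapse slide had lower Cd74 and H2-Aa than those of the naive slide. Cd74 differed by -1.36 (SE 0.300, adjusted p = 0.00227, limma) and H2-Aa by -1.27 (SE 0.269, adjusted p = 0.00132, limma). H2-Ab1, at -0.70 (adjusted p = 0.267), and H2-Eb1, at -0.34 (adjusted p = 0.728), did not pass. The 2 called lower of 4 compare with 1.59% of all targets called and 1.3% called lower. For Cd74 and for H2-Aa alike, 11 of 15 naive stroma segments were above the highest relapse stroma segment, with a count of 2 and of 4. Per 10000 counts it was 8 of 15 for Cd74, above 2.58, and 5 of 15 for H2-Aa, above 4.04. The relapse segments are shallower, and the fit carries depth as a term. Neither was called without naive piece 3 (Cd74 -1.05, adjusted p = 0.123; H2-Aa -0.81, adjusted p = 0.236, limma) or without relapse piece 2, which held 9 of the 14 relapse stroma segments (-1.31, adjusted p = 0.396; -1.12, adjusted p = 0.448, limma). With voom they were at -1.16 (adjusted p = 0.0636) and -0.93 (adjusted p = 0.0989). With plate as a covariate, which only the acute segments inform, Cd74 was at -1.81 (adjusted p = 0.436, limma) and H2-Aa at -1.38 (adjusted p = 0.624).

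Between acute and naive stroma 0 of 4 tested members were called by limma, beside 0.118% of all targets (536 of 5087 at an unadjusted p under 0.05). Cd74 was at -0.46 (95% interval -1.10 to 0.19), H2-Aa at -0.87 (-1.45 to -0.30, adjusted p = 0.220), H2-Ab1 at -0.30 (-0.89 to 0.28) and H2-Eb1 at -0.20 (-0.72 to 0.31). By plate, the Cd74 mean was 2.53 ± 3.04 per 10000 (SD, n = 4) in plate G and 2.04 ± 1.85 (SD, n = 5) in plate H. The acute stroma segment with the highest H2-Aa level, 6 per 10000, lay in acute piece 2.

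Relapse stroma minus acute stroma gave 0 calls of 4 by limma, beside 1% of all targets (553 of 5087 at an unadjusted p under 0.05), with Cd74 at -0.91 (95% interval -1.62 to -0.20, adjusted p = 0.253). Relapse interface minus naive interface gave 0 of 4, beside 1.45% (719 of 5087 at an unadjusted p under 0.05). There Cd74 was at 0.55 (95% interval -0.04 to 1.15) and H2-Ab1 at 0.55 (0.01 to 1.09, adjusted p = 0.345, limma), while H2-Aa was at 0.15 and H2-Eb1 at 0.05. These stage comparisons share the naive stroma, acute stroma and naive interface segments with those above, so their values are not independent of each other.

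**Figure D3:**
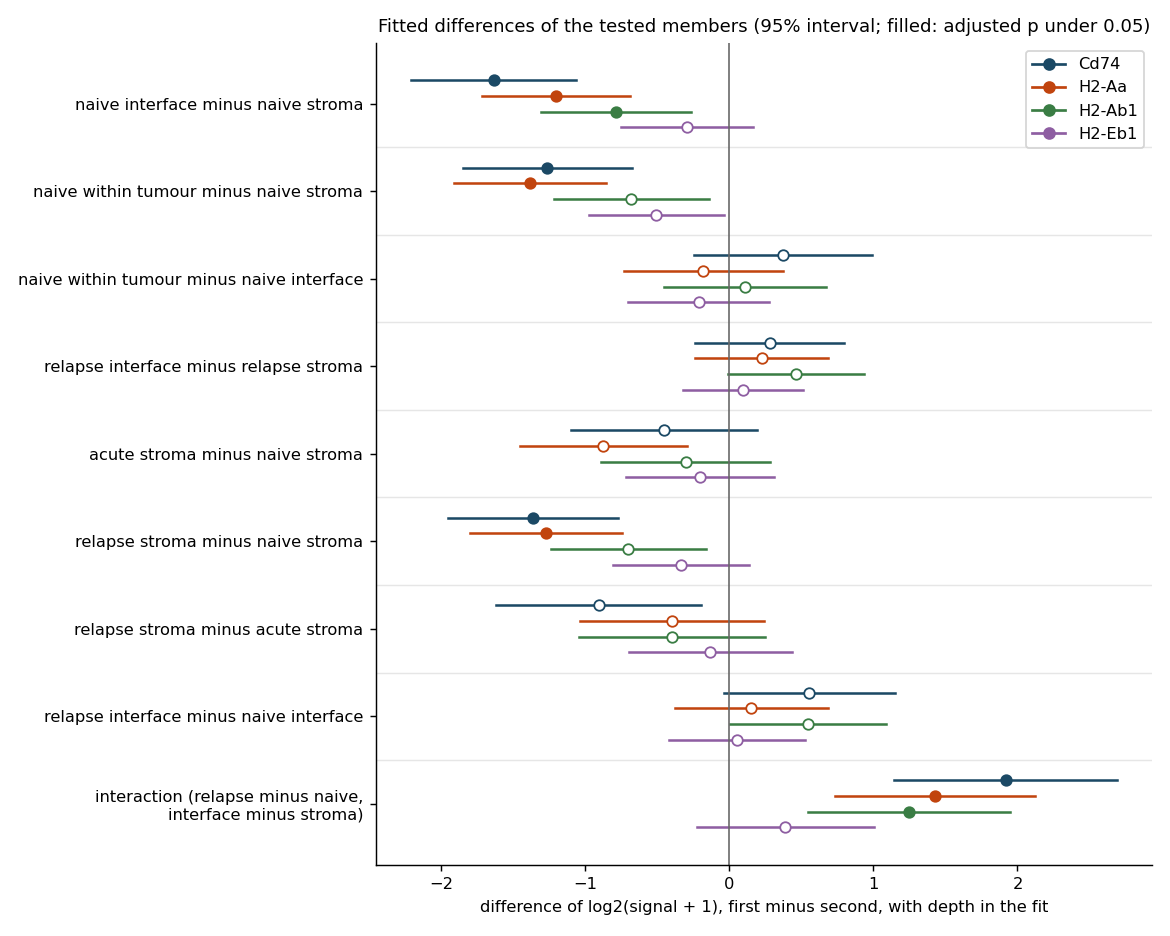
Fitted differences of log2(signal + 1), first class minus second, for the 4 tested members in the 9 comparisons, with 95% intervals from limma; filled points have an adjusted p under 0.05. Cd74 is at -1.64 in naive interface minus naive stroma, at 0.28 on the relapse slide and at 1.92 in the interaction, while H2-Eb1 is filled in no comparison.

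The other genes of the class II pathway were read from a list of 23 targets, of which 10 were tested. Beside 10.2% of all tested targets called lower in naive interface minus naive stroma, 5 of the 10 were called lower and 0 higher. These were Ctss at -1.94 (SE 0.344), the cathepsin S gene whose product trims the invariant chain, Lgmn at -1.77 (SE 0.331), an endosomal asparagine endopeptidase, Ctsb at -1.32 (SE 0.289) and Ctsl at -1.17 (SE 0.342), other lysosomal cathepsins, and Marchf1 at -0.54 (SE 0.186), a ubiquitin ligase that removes class II from the surface. Cathepsins and legumain also serve general protein breakdown in lysosomes. With piece as a fixed term 0 of the 10 were called. H2-Ob, at 0.12, Ifi30, at -0.39, and Cd86, at -0.08, did not pass. The median over the 10 was -0.46 against -0.14 over all targets.

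Within the naive tumour, Ctss was the only pathway target called against stroma (-1.69, SE 0.354, adjusted p = 0.000421, limma), beside 3.79% of all targets called lower. In the interaction Ctss was again the only one called (1.54, SE 0.465, adjusted p = 0.0404, limma), beside 3.5% of all targets called higher. Neither call was made with piece as a fixed term, and in the other 6 comparisons 0 of the 10 were. The peptide exchange genes H2-DMa, H2-DMb1 and H2-DMb2 passed the limit of quantitation in 4, 5 and 2 of 89 segments. The promoter factors Rfx5, Rfxap and Rfxank did so in 6, 6 and 3, and these 6 targets were not tested. Of 18 targets of the interferon gamma axis, 6 were tested and 2 were called lower in naive interface minus naive stroma, beside 10.2% of all targets. The 2 were B2m, the light chain of MHC class I, at -2.80 (SE 0.391) and Ifngr1, a receptor chain, at -0.96 (SE 0.204). Within the tumour against stroma 2 of the 6 were called lower, beside 3.79%, and in relapse minus naive stroma 1, beside 1.3%. In the interaction 1 of the 6 was called higher, beside 3.5%. With piece as a fixed term, used only within slides and for the interaction, 0 of the 6 were called. Ifng itself was above the limit in 2 of 89 segments and Cxcl9 in 2.

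**Figure D4:**
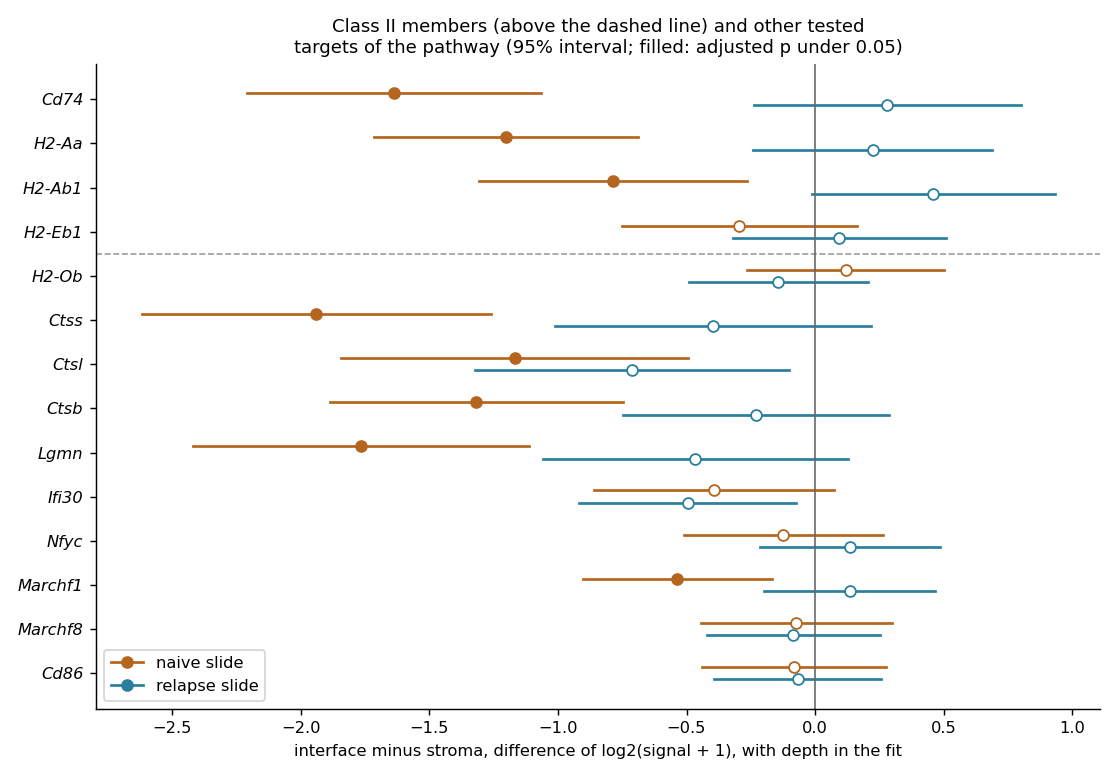
Interface minus stroma on the naive slide (brown) and the relapse slide (blue), as differences of log2(signal + 1) with 95% intervals from limma, for the 4 tested members above the dashed line and 10 tested targets of the pathway below it. On the naive slide 3 members and 5 pathway targets are filled, meaning an adjusted p under 0.05, and on the relapse slide none is.

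Markers of cells other than neutrophils moved in the same comparisons. In naive interface minus naive stroma 7 of 9 tested macrophage markers were called lower, among them C1qa (-1.56, SE 0.287) and Csf1r (-1.27, SE 0.254). So were 8 of 8 tested fibroblast markers, 1 of 2 endothelial markers and Mfge8, the only tested target of the Langerhans cell list, beside 10.2% of all targets. Cd207 and Epcam of that list were above the limit in 2 of 89 segments each and were not tested. Of the keratinocyte markers 1 of 8 was called lower, which is near the share of all targets. Of the tested B cell, T cell and neutrophil markers 0 of 2 each were called. The summed macrophage level had a median of 22.9 per 10000 in naive stroma (2.42 to 58.3), 4.52 in naive interface (2.77 to 63.5) and 5.21 within the tumour (0 to 152). The summed fibroblast level had a median of 199 in naive stroma (14.9 to 334), 14.4 in naive interface (6.59 to 319) and 6.64 within the tumour (0 to 42.6). Within the tumour against stroma, 5 of 9 macrophage and 6 of 8 fibroblast markers were called lower, beside 3.79% of all targets. With piece as a fixed term, 0 of 9 macrophage markers were called in either comparison, and 3 of 8 and 4 of 8 fibroblast markers were called lower. Of the Langerhans cell, keratinocyte and endothelial markers 0 were called in that fit. Their part in the class II differences was not tested.

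In relapse stroma minus naive stroma, where Cd74 and H2-Aa were lower, 0 of 9 macrophage markers were called and 5 of 8 fibroblast markers were called lower. Of all targets 1.59% were called there and 1.3% were called lower. The macrophage sum had a median of 8.13 in relapse stroma (0 to 73.1), and the fibroblast sum one of 15.7 (6.97 to 431). In the same comparison 5 of 8 tested keratinocyte markers were called higher, and so was 1 of 2 tested B cell markers, Ighm, by 3.46 (SE 0.506). In the interaction 2 of 9 macrophage, 5 of 8 fibroblast and 3 of 8 keratinocyte markers were called higher, beside 3.5% of all targets. So was Mfge8, the 1 tested target of the Langerhans cell list. With piece as a fixed term 0 of any of these were called. Dendritic cell markers were called in 0 of 9 comparisons, with 4 of 11 tested. Of these 4, Cd209a was above the limit in 23 of 89 segments, Fscn1 and Siglech in 13 each and Irf4 in 9. Among the untested ones, Itgax was above it in 8, Flt3 in 7 and Xcr1 in 6. The dendritic cell sum had a median of 4.90 in naive stroma (0 to 13.1) and 5.17 in naive interface (0 to 7.69). Of the B cell markers Ighm was above the limit in 49 segments, Cd79b in 10, Ms4a1 in 7 and Cd79a in 3. The part of these cells in the class II values was not tested.

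The members varied together to different degrees. After removal of depth, the Pearson correlation over the 89 segments, as a description, was 0.645 between Cd74 and H2-Aa, 0.60 between Cd74 and H2-Ab1 and 0.543 between H2-Aa and H2-Ab1. With the class means removed as well these were 0.545, 0.550 and 0.471, so the 3 also varied together among segments of a class. H2-Eb1 was less like the others, at 0.258 with Cd74, 0.296 with H2-Aa and 0.359 with H2-Ab1. Segments share slides, plates and pieces, and counts near the floor limit all of these values.

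By the same measure, the 3 tested targets outside the members that were most like Cd74 were Aebp1 (0.758), C4b (0.729) and Bgn (0.711), of which Bgn encodes the matrix proteoglycan biglycan and C4b a complement component. For H2-Aa they were Mmp2 (0.649), Bgn (0.641) and Col1a2 (0.641), and for H2-Ab1 they included Bgn (0.626) and Fbln1 (0.605). Several of these are extracellular matrix genes of fibroblasts. H2-Eb1 had lower values, with Sars first at 0.560. H2-Aa ranked 28 among the tested targets in likeness to Cd74, while Cd74 ranked 2 in likeness to H2-Aa.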

How the data were processed

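The sequenced tags came from GeoMx segments collected in 2 plates, per the labels' protocols; Seurat and mm10 are named in the submitters' processing notes, and the aligner and counter are not given in the sources used here. The deposited matrix holds normalised signal, the tag count divided by a factor (a ratio) that the authors deposited per segment, as checked on the values: 99.99% of products of signal and factor were whole within 1e-06, and 3 of 19962 targets with other values were left out of depth. The lowest recovered count was 1, and 69.1% of values were at it. In 51 of 89 segments the factor was the lowest of 9, so 1 count had a signal of 3.74 there and 0.288 at the highest factor; the floor therefore weighs more in shallow segments. Negative-probe means and region positions were taken as scores and nuclei as counts, as the authors deposited them.

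Targets above the limit of quantitation in at least 10% of segments were tested with limma 3.58.1 in R 4.3.3 (trend, 7 class means, log2 depth, pseudocount 1, two-sided, threshold 0.05, 9 comparisons, 95% intervals). Intervals assume independent segments. The fit was also run on simulated segments drawn independently, with no effect of tissue piece, slide or animal. That run cannot show whether the p-values hold for segments that share these. Named targets were the members, pathway targets past the threshold and, per tested member, the 3 targets most correlated with it, of which 1 is not reported here; other named targets were chosen after their values were seen. Members and lists were chosen with earlier results of these data known. A segment joined a tissue piece where it lay within 8000 position units of any segment of it (single linkage). Segments of the same piece can therefore lie farther apart than that. Alternatives were no depth term, the same total, pseudocount 0.5, no filter, plate, tissue piece as a random block or fixed term, pieces left out and voom.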

Additional observations from a re-analysis of the deposited data

Results flagged for a closer look

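In acute stroma 1 segment stood far from the other 8 in H2-Aa, at 6 per 10000 counts, with a count of 13, and 1 in H2-Eb1, at 3.31 per 10000. The H2-Eb1 segment had a count of 2 at a depth of 3020, which is 1 count above the floor and not above its limit of quantitation of 2. By the 95% critical value used, chance flags about 1 in 20 groups of normally spread values. This outlier rule covered only acute stroma, since the other classes held too few or too many segments for it. The Cd74 segment within the naive tumour at 38.1 per 10000 was therefore not examined by it. The difference between interface and stroma was not the same on the relapse and naive slides for 3 members by the interaction term in limma: 1.92 for Cd74 (adjusted p = 0.00117), 1.43 for H2-Aa (adjusted p = 0.00739) and 1.25 for H2-Ab1 (adjusted p = 0.0283). With tissue piece as a fixed term none of the 3 was called (0.80, 1.05 and 0.34). Slide and stage cannot be told apart in these values.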

How the results depend on the processing

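Of the alternative counts of called members, 109 were within 1.5 times the reported one and 20 were not; single members kept their direction except where values are given here, and where none of these shows a cause the cause was not tested. With tissue piece as a fixed term, 0 members were called in place of 3 in naive interface minus stroma, of 2 within the tumour against stroma and of 3 in the interaction. Rescaled to the same total, naive interface minus stroma had 1 member called in place of 3 and the interaction 0 in place of 3. With plate as a covariate, relapse minus naive stroma had 0 in place of 2. With voom on recovered counts there were 1 in place of 2 within the tumour against stroma, 1 in place of 0 within the tumour against interface, 0 in place of 2 in relapse minus naive stroma, and 4 in place of 0 in relapse minus naive interface, where voom called 84.4% of all targets. Without 1 tissue piece at a time the counts ran from 0 to 3 in naive interface minus stroma, 0 to 2 within the tumour against stroma, 0 to 2 in relapse minus naive stroma and 0 to 3 in the interaction. The pieces that moved them by more than 1.5 times are naive 2 and 3 and relapse 1 and 2. Other pieces moved single calls of H2-Ab1.

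With piece as a fixed term H2-Ab1, called in naive interface minus stroma, was at 0.094 there and at 0.18 within the tumour against stroma. The other reversed values were of members not called in that comparison. With voom, H2-Eb1 was at 0.015 within the tumour against stroma, 0.51 against interface (H2-Aa 0.39), 0.25 in relapse minus naive stroma and 0.73 in relapse minus acute stroma (H2-Aa 0.23, H2-Ab1 0.16). At the same total, H2-Ab1 was at -0.10 within the tumour against interface and H2-Eb1 at -0.29 in relapse minus naive interface, where plate gave -0.10. Without the depth term H2-Eb1 was at 0.026 in relapse minus acute stroma. Without 1 piece, within the tumour against interface ran from -0.90 to 0.018 for H2-Aa and -0.30 to 0.35 for H2-Ab1, and relapse interface minus stroma from -0.10 to 0.47 for Cd74 and -0.024 to 0.19 for H2-Eb1. Acute minus naive stroma ran from -0.79 to 0.082 for H2-Ab1 and -0.43 to 0.034 for H2-Eb1. Relapse minus acute stroma ran from -0.57 to 0.088 for H2-Ab1 and -0.27 to 0.11 for H2-Eb1. Relapse minus naive interface ran from -0.34 to 0.36 for H2-Aa and -0.20 to 0.27 for H2-Eb1.

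Depth limits the relapse slide most, where 1 count is 2.87 per 10000 at the median depth of interface segments. Counts over all targets, with fits that leave out a piece set aside, ran from 15 to 774 around 546 in naive interface minus stroma and 9 to 1239 around 205 within the tumour against stroma. The lowest values there, 15 and 9, were with piece as a fixed term. They ran from 2 to 759 around 81 in relapse minus naive stroma and 25 to 1652 around 51 in relapse minus acute stroma. In relapse minus naive interface they ran from 4 to 4292 around 74, and in the interaction from 0 to 213 around 180. Both tissue piece settings and voom were chosen after seeing the data. The planned edgeR test was not run, since the signal did not pass as whole reads. No paired analysis was possible because the labels place all segments in 1 group and number them in accession order only; locations were compared within pieces by the fixed term, which cannot be used between slides.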
